A study of Mus musculus with 4 samples.

Results

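The lysosomal genes described here were 39 named members of 37074 genes and transcripts on the array. They were matched by gene name, with no threshold on their values: 8 cathepsins, 10 other hydrolases, 2 precursors of activator and granulin proteins, 5 lysosomal membrane proteins, 2 transcription factors and 12 subunits of the vacuolar ATPase. The array carried 39 of 39, with 81 probes in 99 spots, and every member was well above background on all 4 arrays, so no member was left out by a filter on low signals.

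Messenger RNA was measured on 4 one-colour arrays with Cy3-labelled RNA from RAW264.7, an established mouse macrophage line transformed by Abelson leukaemia virus. The groups were wild-type cells without treatment, wild-type cells with lipopolysaccharide (LPS), Mfp2-/- cells without treatment and Mfp2-/- cells with LPS, with 1 array each. LPS is the bacterial cell wall component sensed through Toll-like receptor 4, and Mfp2, the product of Hsd17b4, is an enzyme of peroxisomal beta-oxidation; these cells are called knockout here. For the dose and duration of LPS, the way the knockout was made and the number of clones, the labels are silent. No comparison of 2 arrays has a replicate check, so no p-value is given for one, and the number of arrays limits the precision. Each array had its own position on 1 slide, so position and group cannot be told apart.

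Lysosomes digest material taken up by phagocytosis and endocytosis, and macrophages are rich in them. The vacuolar ATPase pumps protons across the lysosomal membrane: its V1 sector in the cytosol hydrolyses ATP and its V0 sector in the membrane passes the protons. The low pH it sets is needed by the cathepsins, a set of proteases, and by hydrolases of glycans, lipids and peptides. TFEB and TFE3 are transcription factors that bind E-box motifs, with CACGTG at the core, near the start sites of many of these genes.

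The share of spots well above background ran from 47.4% to 49.7% over the arrays, controls left out, and 0 spots were saturated. The transcript of the targeted gene, Hsd17b4, gave signals of 4482 without and 2915 with LPS in wild type, and 2545 without and 1217 with LPS in knockout. After scaling it stood at 54.0% of wild type without LPS and at 43.3% with LPS. It was lower in the cells labelled knockout and not lost, and the sources used here do not say whether the probe lies in the altered part of the gene. Of 6 genes that LPS is known to induce (Tnf, Il1b, Il6, Nos2, Ptgs2 and Cxcl10), 6 were at least 2-fold higher with LPS in each genotype. Of 10 macrophage markers 9 were above background on all 4 arrays, and Mertk on 1. Of 10 markers of other cell types, 6 were at background on all 4 arrays, among them Ncr1, Epcam, Krt18, Col1a1 and Mcpt4. Above background on all 4 arrays were 2 of the 10, and the rest were so on some arrays. Siglech, a marker of plasmacytoid dendritic cells, gave signals of 20759 without and 20846 with LPS in wild type, and 10217 without and 23302 with LPS in knockout. It was lowest in untreated knockout, and its part in the values below was not tested.

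The members are described first by the DNA at their start sites, since the E-box is the motif by which this set of genes is commonly linked. Of the 39 members 34 matched a promoter in a RefSeq table (GRCm38.p6), with 41 promoters of 300 bases, from 250 before to 50 after each start site. The core CACGTG, which reads the same on both strands, occurred in 12 of the 41 (29.3%), belonging to 12 genes, and in 7.15% of all 32851 promoters of that length. The longer form TCACGTG, which contains the core and was searched on both strands, occurred in 26.8% of member promoters and in 3.77% of all. The genes with the core were Atp6v0b, Atp6v0d1, Atp6v0e and Atp6v1a of the proton pump, Ctsa, Ctsd and Ctsl of the cathepsins, Gaa, Gla and Glb1 of the other hydrolases, and Lamp1 and Mcoln1 of the membrane proteins. Lamp1 held 4 copies within 61 bases of its start site. The first 3 stretches below show promoters with several cores, printed from 100 bases before the start site, 5′ to 3′, with each core in capitals.
Lamp1 (chr8:13159061-13159160, plus strand): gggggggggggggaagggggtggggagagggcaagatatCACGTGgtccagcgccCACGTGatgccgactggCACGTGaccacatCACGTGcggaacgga
Atp6v0b (chr4:117887330-117887429, minus strand): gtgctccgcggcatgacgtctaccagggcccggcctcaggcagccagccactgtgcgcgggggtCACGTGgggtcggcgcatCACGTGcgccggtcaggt
Mcoln1 (chr8:3500419-3500518, plus strand): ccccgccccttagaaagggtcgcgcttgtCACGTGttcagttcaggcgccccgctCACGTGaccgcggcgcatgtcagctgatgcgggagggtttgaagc

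The members with the 3 highest and the 3 lowest LPS differences, averaged over the genotypes, are the other promoters of interest. They were Atp6v0a1, Atp6v1h and Atp6v1e1 at the top and Ctsh, Laptm5 and Man2b1 at the bottom. The table held promoters for 4 of these, printed in the same way. None of the 4 stretches holds a core, and so none has capitals.
Atp6v0a1 (chr11:101010298-101010397, plus strand): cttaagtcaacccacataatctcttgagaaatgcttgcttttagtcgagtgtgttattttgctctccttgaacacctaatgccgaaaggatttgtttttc
Atp6v1e1 (chr6:120822699-120822798, minus strand): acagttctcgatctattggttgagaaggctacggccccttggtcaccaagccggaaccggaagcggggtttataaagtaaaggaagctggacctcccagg
Laptm5 (chr4:130913216-130913315, plus strand): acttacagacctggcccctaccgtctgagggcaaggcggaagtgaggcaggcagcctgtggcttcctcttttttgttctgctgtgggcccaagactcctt
Man2b1 (chr8:85083169-85083268, plus strand): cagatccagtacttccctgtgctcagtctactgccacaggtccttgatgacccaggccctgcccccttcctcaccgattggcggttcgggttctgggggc

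Letters that match are a description and not a binding site. TGANTCA, with N as any base, is a loose form of the motif of AP-1, a factor that LPS activates. It was searched in the same windows on both strands and occurred in 12.2% (Atp6v0a1, Glb1, Neu1, Psap and Tfe3) against 7.81%. The 12 genes with a core had a median LPS difference of 0.31 in wild type on the log2 scale (range -0.12 to 0.99), and the 22 genes without one had 0.40 (range -1.03 to 2.01). The corresponding medians in knockout were 0.18 and 0.32.

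**Figure D1:**
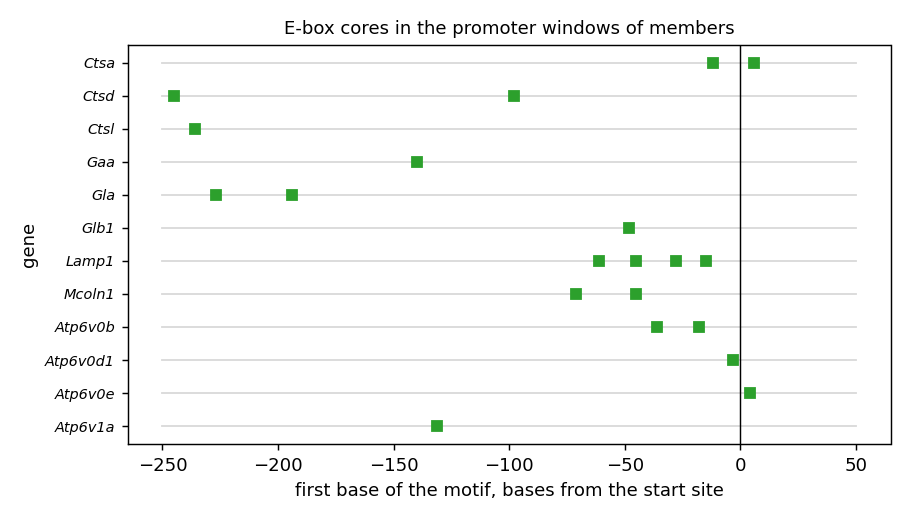
Position of each CACGTG core, in bases from the start site (x axis), in the promoter windows of the 12 members that hold one (y axis). Each point is 1 core, and 0 is the start site; the 4 cores of Lamp1 lie between -61 and -15.

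With LPS, the scaled differences of the 12 proton pump subunits lay above 0 in both genotypes, though up to 4 did not in knockout with other scalings. Of the 8 cathepsins 7 lay above 0 in wild type and 6 in knockout, and of the 10 other hydrolases 3 did in each. At least 1.5-fold higher were 7 pump subunits in wild type and 6 in knockout, 4 and 2 cathepsins, and 0 other hydrolases, against 18% and 20.5% of all genes. Signals are processed intensities on the linear scale. Differences are log2 values after each array was divided by its own 75th percentile, which lay between 463 and 567. From replicate spots, the technical SD of such a difference was 0.0537 for LPS in wild type and 0.0891 for LPS in knockout at signals of 1000 and over, and of about 0.213 and 0.220 below 1000. These SDs cover spots of 1 array and not cultures. The labels do not say whether groups came from separate cultures on separate days, and in bulk RNA fewer cells of a kind and less RNA per cell cannot be told apart.

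In wild type, 3 members were at least 2-fold higher with LPS and 2 at least 2-fold lower. Over all 18213 genes compared, 9.94% were higher and 8.39% lower, so these counts lie near the background. At 1.5-fold, 13 members were higher against 18% of all genes, and 3 were lower against 17.1%. In knockout, 4 members were at least 2-fold higher and 3 lower, against 11.1% and 12.4% of all genes. At 1.5-fold, 9 were higher against 20.5% and 5 lower against 22.2%. The classes differed in their medians. The 12 pump subunits had a median difference of 0.64 in wild type and 0.62 in knockout, the 8 cathepsins 0.58 and 0.38, and the 10 other hydrolases -0.14 and -0.30, against medians of all genes of 0.03 and -0.00. With centring on the spike-in probes, the median of all genes moved to -0.20 in wild type and -0.24 in knockout, and those of the 3 classes moved with it: 0.42 and 0.38, 0.36 and 0.14, and -0.36 and -0.55. With this centring the 2-fold calls over all genes also changed from 1810 higher and 1528 lower to 1324 and 2218 in wild type, and from 2047 and 2277 to 1474 and 3199 in knockout.

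One test could be made across genotypes. A fit with a genotype and an LPS term uses both LPS differences as repeat measures and leaves 1 residual degree of freedom (limma with moderated variances, Benjamini-Hochberg adjustment over 17377 genes). It takes the LPS response to be the same in both genotypes, and its SEs and p-values hold only on that condition. They do not measure the spread between cultures of a group. For LPS it called 8 of 39 members at an adjusted p below 0.05, 6 higher and 2 lower, against 21.8% of all genes, a share near the background. The 6 were Atp6v0a1, Atp6v0d1, Atp6v1e1, Atp6v1h, Ctsl and Ctsz, and the 2 were Ctsh and Laptm5. The count of calls depends on the variance model and the filter: it was 17 with normexp background correction, 15 among genes above background on all 4 arrays and 23 with a trended prior, settings in which 34.5%, 33.8% and 37.2% of all genes were called. With the main settings none of the 10 other hydrolases was called. Man2b1 was called with normexp correction, spike-in centring, the deposited series table, the filter on all 4 arrays and the trended prior. Neu1 was called with the trended prior alone.

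**Figure D2:**
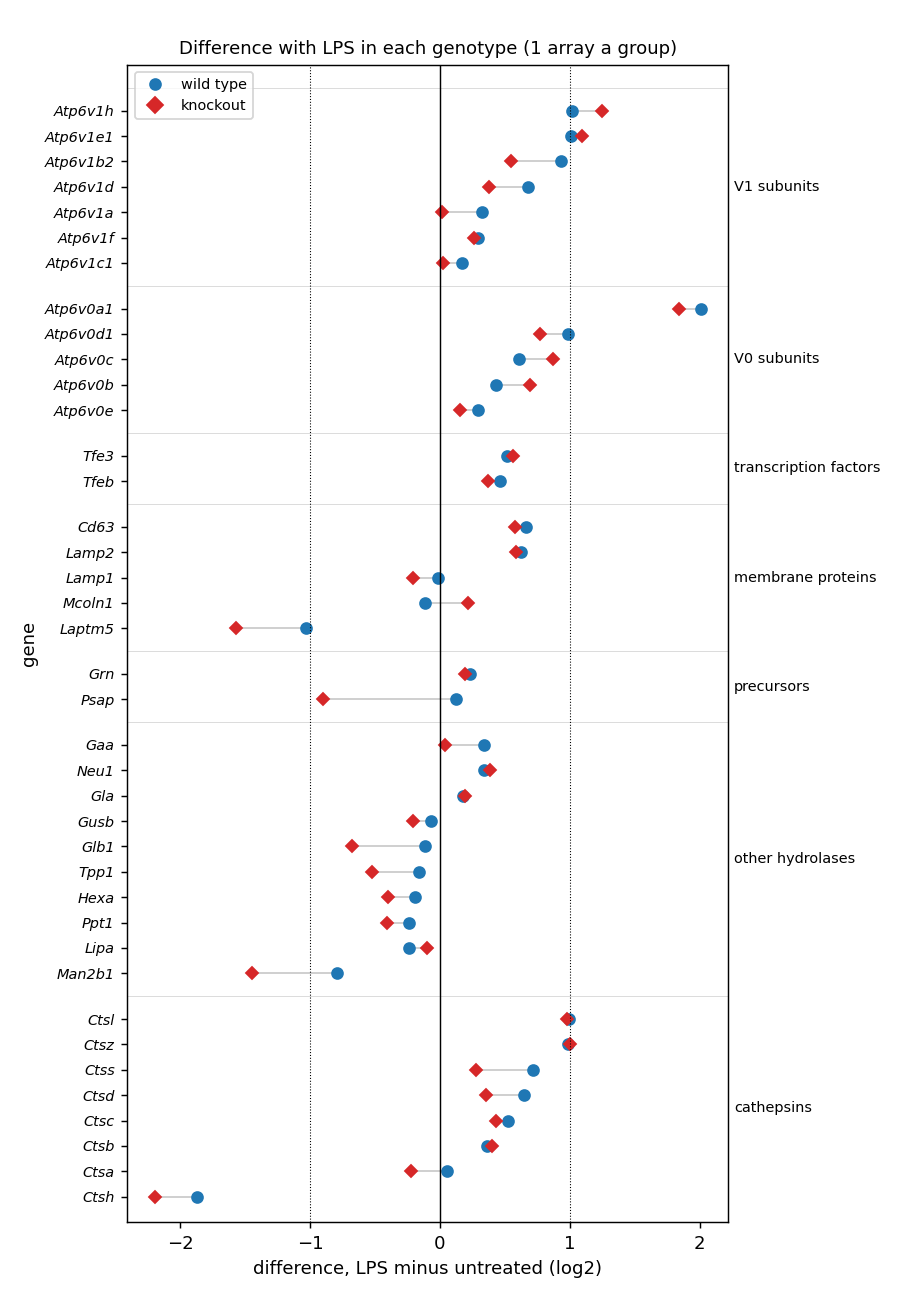
Log2 difference between LPS and untreated cells (x axis) for each of the 39 members (y axis, grouped by class), circles for wild type and diamonds for knockout, 1 array a group, with dotted lines at 2-fold. The 12 pump subunits lie right of 0 in both genotypes with the 75th percentile scaling, though up to 4 do not in knockout with the other scalings, from 0.02 (Atp6v1a, knockout) to 2.01 (Atp6v0a1, wild type), and Ctsh lies at the far left.

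Atp6v0a1, which encodes the large membrane subunit of V0 that lines the proton path, had the largest difference. Its signal was 2667 without and 9559 with LPS in wild type, and 4258 without and 12432 with LPS in knockout. Both LPS arrays were above both untreated arrays. The increase was 4.02-fold in wild type and 3.57-fold in knockout, and Atp6v0a1 rose in the additive fit by 1.92 (log2, SE 0.128, limma adjusted p = 0.0260). Its other 2 probes above background on all arrays were dimmer and also higher with LPS, by 1.61 and 1.94 in wild type and by 1.83 and 1.51 in knockout. The probe (NM_001243051) lies at chr11:100924969-100925028 in the mm9 coordinates of the files.

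The other V0 genes differed less. Atp6v0d1, the subunit that joins V0 to the central stalk, gave 4580 and 8104 in wild type and 5906 and 8244 in knockout, without and with LPS. Its additive change was 0.88 (SE 0.134, limma adjusted p = 0.0414), with adjusted p up to 0.0587 under the alternatives. Atp6v0c, the proteolipid that makes up most of the proton-carrying ring, gave 36562 and 49707 in wild type and 35396 and 52733 in knockout. Atp6v0b, also of the ring, gave 12593 and 15146, and 11228 and 14809. For both genes each LPS array was above each untreated array, and their additive changes of 0.74 and 0.56 did not pass the test (limma adjusted p = 0.0543 and 0.0795). Atp6v0e, a small V0 subunit, differed by 0.30 and 0.16.

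In the V1 sector, Atp6v1h, the regulatory H subunit, gave 7545 and 13576 in wild type and 6797 and 13170 in knockout. It rose by 1.13 in the additive fit (SE 0.136, limma adjusted p = 0.0334). Its 2 other probes above background gave 1.02 and 1.28 in wild type and 1.37 and 1.11 in knockout, so its 3 probes lay close together. Atp6v1e1, a peripheral stalk subunit, gave 5627 and 10074 in wild type and 5244 and 9168 in knockout, and rose by 1.05 (SE 0.121, limma adjusted p = 0.0327). For both subunits the LPS arrays stood well clear of the untreated ones, and the genotypes were close.

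Atp6v1b2, which with Atp6v1a forms the ATP-hydrolysing head, gave 23646 and 40116 in wild type and 20604 and 24660 in knockout. The wild-type LPS array stood alone at the top, with a difference of 0.93 against 0.55 in knockout. Atp6v1a, the catalytic subunit, gave 15411 and 17200, and 17892 and 14774, so that its scaled difference was 0.32 in wild type and 0.02 in knockout. Atp6v1d, of the central rotor, differed by 0.68 and 0.38, Atp6v1f, of the rotor also, by 0.29 and 0.26, and Atp6v1c1, a stalk subunit, by 0.17 and 0.03. No member of the pump was below 0 in either genotype with the main scaling. In knockout 4 of 12 were below 0 with quantile normalization, 3 with spike-in centring and 2 with normexp correction, and in wild type 1 was with spike-in centring.

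**Figure D3:**
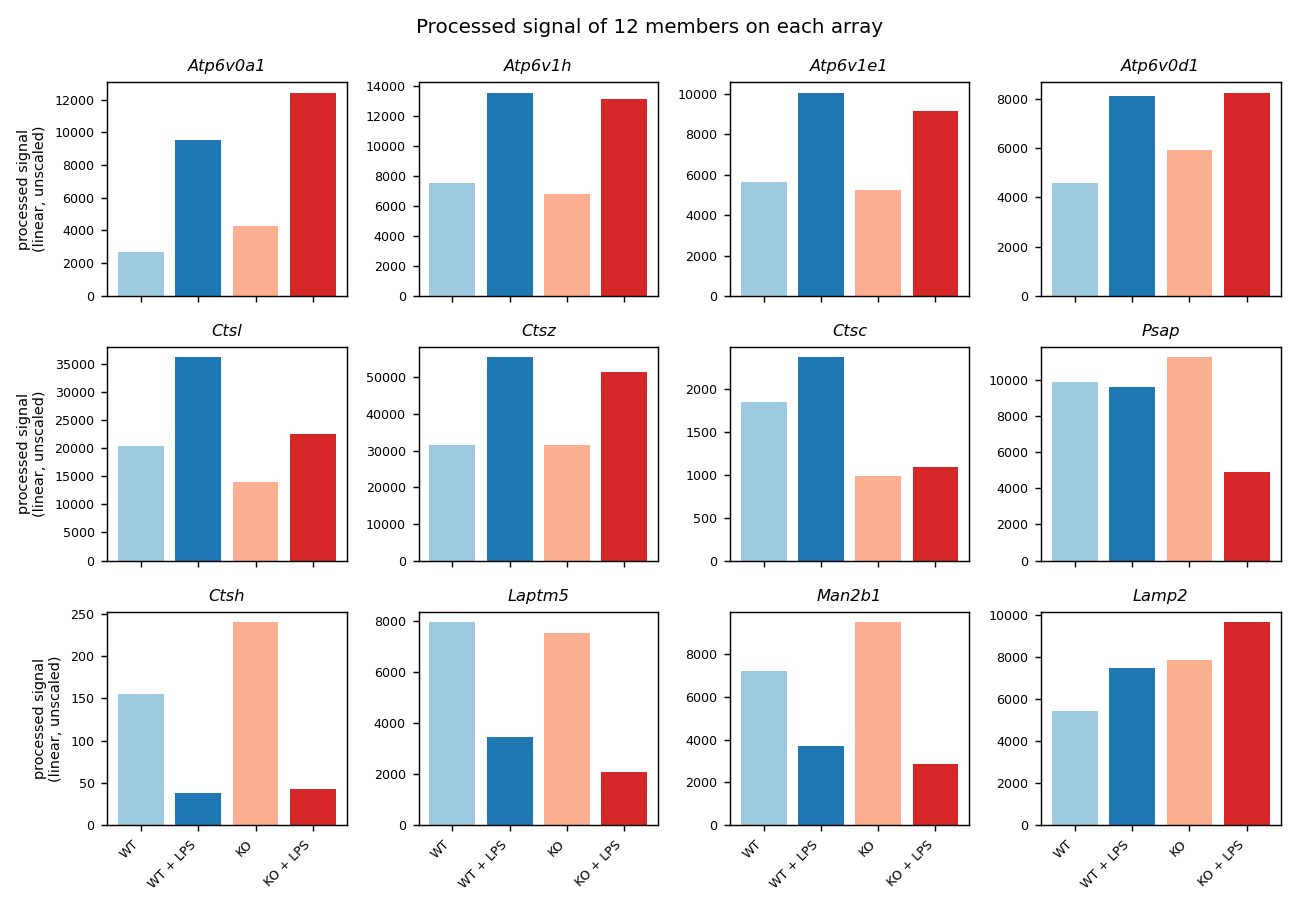
Processed signal on a linear axis from 0 (y axis) of 12 members on each of the 4 arrays (x axis; WT wild type, KO knockout), 1 bar an array with no error bar. Atp6v0a1 and Atp6v1h are high on both LPS arrays, Laptm5 and Man2b1 are low on both, and Psap is low in knockout with LPS.

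Among the cathepsins, Ctsl, a cysteine endoprotease of the lysosome, was read by 10 spots on each array. Its mean signal was 20409 ± 812 (SD over spots, n = 10 spots) without and 36181 ± 1002 with LPS in wild type, and 13976 ± 505 without and 22497 ± 899 with LPS in knockout. Within each genotype the ranges of unscaled spot signals with and without LPS did not overlap. The unscaled ranges of untreated wild type (18519 to 21440) and knockout with LPS (21246 to 23652) did so slightly. After scaling, the log2 values of these 2 arrays were 5.24 and 5.60. LPS went with 1.99-fold and 1.97-fold higher Ctsl, and the additive change was 0.99 (SE 0.119, limma adjusted p = 0.0334).

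Ctsz, a carboxypeptidase, had a like difference. Its signal was 31511 in untreated wild type and 55493 with LPS, and 31404 in untreated knockout and 51476 with LPS. The 2 genotypes were close in each condition, and Ctsz rose by 0.99 (SE 0.119, limma adjusted p = 0.0334). Ctss, the protease that trims the invariant chain of MHC class II, gave 55315 and 81037 in wild type and 62818 and 62142 in knockout; after scaling the differences were 0.72 and 0.28. Ctsd, the main aspartic protease, gave 31208 and 43452, and 25738 and 26929, with differences of 0.64 and 0.36. For both genes the wild-type LPS array was the highest.

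Ctsb, a cysteine protease, differed by 0.36 and 0.40, and Ctsc, the dipeptidyl peptidase that activates granule serine proteases, by 0.53 and 0.43. Ctsa, the carboxypeptidase that protects beta-galactosidase and neuraminidase, differed by 0.05 and -0.22. Ctsh, an aminopeptidase, was the cathepsin with the lowest LPS difference. Its signal was 155 without and 37.7 with LPS in wild type, and 241 without and 42.9 with LPS in knockout. It was 3.66-fold and 4.58-fold lower with LPS and fell by 2.04 in the additive fit (SE 0.151, limma adjusted p = 0.0266). With normexp correction its differences were smaller in size, -0.997 in wild type and -1.29 in knockout. All 4 values are dim, with a technical SD near 0.213, though well above background.

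Among the other hydrolases 7 of 10 were below 0 and 3 above. Man2b1, the lysosomal alpha-mannosidase, gave 7235 without and 3720 with LPS in wild type, and 9510 without and 2850 with LPS in knockout. The untreated arrays were both above the LPS arrays, and knockout had both the highest and the lowest value. The additive change of -1.12 (SE 0.222) did not pass the test (limma adjusted p = 0.0577), and it passed under 5 of 7 alternatives. Glb1, beta-galactosidase, gave 4592 and 3780 in wild type and 5244 and 2676 in knockout, differences of -0.11 and -0.68; its 4 other probes above background gave between -0.21 and -0.01 in wild type and between -0.69 and -0.38 in knockout. Tpp1, tripeptidyl peptidase, gave 14237 and 11323, and 16745 and 9511, or -0.16 and -0.52.

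Hexa, a beta-hexosaminidase subunit, differed by -0.19 and -0.40, Lipa, the acid lipase of cholesteryl esters, by -0.24 and -0.10, and Gusb, beta-glucuronidase, by -0.07 and -0.21. A second, dimmer Gusb probe, above background on all arrays, gave 0.43 and 0.26. Gla, alpha-galactosidase (0.17 and 0.19), Gaa, the glycogen-degrading alpha-glucosidase (0.34 and 0.04), and Neu1, neuraminidase (0.34 and 0.39), were the 3 above 0. For this class 7 of 10 were below 0 in each genotype. With spike-in centring 8 and 9 were below 0, and with the mean of all probes 5 and 6.

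Psap, the precursor of the saposins that present sphingolipids to their hydrolases, gave 9882 without and 9602 with LPS in wild type, and 11254 without and 4922 with LPS in knockout. The knockout LPS array stood apart below the other 3, with scaled differences of 0.12 in wild type and -0.90 in knockout. Psap was measured by 1 probe that has 1 spot, so the low value has no second reading. Grn, the granulin precursor and the brightest member, gave 208437, 218277, 200730 and 187780 in the same order, and differed by 0.23 and 0.20.

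Of the membrane proteins, Laptm5, a lysosomal protein of blood cells, gave 7984 and 3478 in wild type and 7556 and 2079 in knockout. Both LPS arrays lay well below both untreated arrays, and Laptm5 fell by 1.30 (SE 0.195, limma adjusted p = 0.0408). Lamp2, a main glycoprotein of the lysosomal membrane, gave 5456 and 7504, and 7896 and 9696, or 0.63 and 0.59. Lamp1, its counterpart, gave 66444 and 58655, and 78378 and 55311, or -0.01 and -0.21. Cd63, a tetraspanin of late endosomes, was read by up to 10 spots and gave 48985 ± 862 (SD over 10 spots) and 69158 ± 1061 (9 spots) in wild type, and 38516 ± 6120 and 46968 ± 2415 (10 spots each) in knockout. One spot of untreated knockout at 21523 widened that SD; the median of its spots was 40359. Cd63 and Lamp2 were higher with LPS in both genotypes and did not pass the test (limma adjusted p = 0.0565 and 0.0568).

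Mcoln1, the calcium channel of the lysosomal membrane, gave 4220 and 3466 in wild type and 4540 and 4314 in knockout, with differences of -0.12 and 0.22. Tfe3 gave 11847 and 15074, and 11361 and 13719, or 0.51 and 0.56. Tfeb was dim, with 275 and 338, and 329 and 347, on the probe with the highest mean signal.

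Knockout and wild type were compared next. Without LPS, 0 of 39 members differed by 2-fold, against 7.04% of all 18415 genes. At 1.5-fold, 1 member was higher (Atp6v0a1) and 2 lower (Ctsc and Ctsl), against 6.92% and 7.84%. With LPS, 1 member was at least 2-fold lower, against 4.64% of 17739 genes, and 0 were higher, against 1.67%. At 1.5-fold 6 were lower (Ctsc, Psap, Laptm5, Atp6v1b2, Ctsd and Ctsl), against 10.3%, and 0 were higher, against 5.54%. These contrasts share arrays with the LPS contrasts, so their values are not independent of those above. The technical SDs at signals of 1000 and over were 0.0611 without LPS and 0.0841 with LPS. The additive fit called 0 genes and so 0 members for genotype (limma, 17377 genes); 1690 genes and 6 members had an unadjusted p below 0.05. Under its alternatives up to 72 genes were called, with a trended prior, and 0 members under each of the 7.

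Ctsc had the largest genotype difference among the members. Its signal was 1853 in untreated wild type and 993 in untreated knockout, and 2377 and 1096 with LPS. Both knockout arrays lay below both wild-type arrays, and the gene was 1.96-fold and 2.09-fold lower in knockout. The additive change was -1.02 (SE 0.121, limma adjusted p = 0.218). A second, dim Ctsc probe was also lower in knockout (-0.20 and -0.53). In Ctsl the knockout was 1.54-fold lower without LPS and 1.55-fold lower with LPS, a shift of like size in both conditions, and Cd63 was lower by 1.34-fold and 1.42-fold. The Cd63 mean of untreated knockout (38516) includes the low spot at 21523, and the median of its spots was 40359.

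Ctsd differed by -0.35 without LPS and -0.64 with LPS, and Ctsb by -0.23 and -0.20. The cathepsins as a class had medians of -0.15 and -0.28, and 7 of 8 were below 0 with LPS, as 7 or 8 were under each alternative. Ctsh was above 0 in knockout (0.56 and 0.24), from dim signals, and with the mean of all probes it was -0.34 with LPS. Lamp2 was higher in knockout by 0.46 and 0.42, while its probe for the transcript NM_001017959 gave -0.16 and -0.04 and its dimmest one 0.55 and 0.09. Atp6v0a1 was higher by 0.60 and 0.43 on its brightest probe, with 0.09 and 0.32, and 0.40 and -0.03, on the other 2.

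With LPS, 28 of 39 members were below 0 in knockout against wild type, with a median of -0.16 against 0.01 over all genes. Across the 7 settings between 27 and 32 members were below 0. Without LPS 20 of 39 were below 0, and the median was -0.00 against 0.03. The other hydrolases had medians of 0.08 without LPS and -0.16 with LPS. The pump subunits had -0.04 in both, and their median without LPS ranged from -0.08 to 0.00 over the settings. Replicate spots on the array of knockout with LPS varied more, with a median spot SD of 0.0759 on the log2 scale against 0.0364 to 0.0467 on the others, and the part of this array in the values was not tested.

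**Figure D4:**
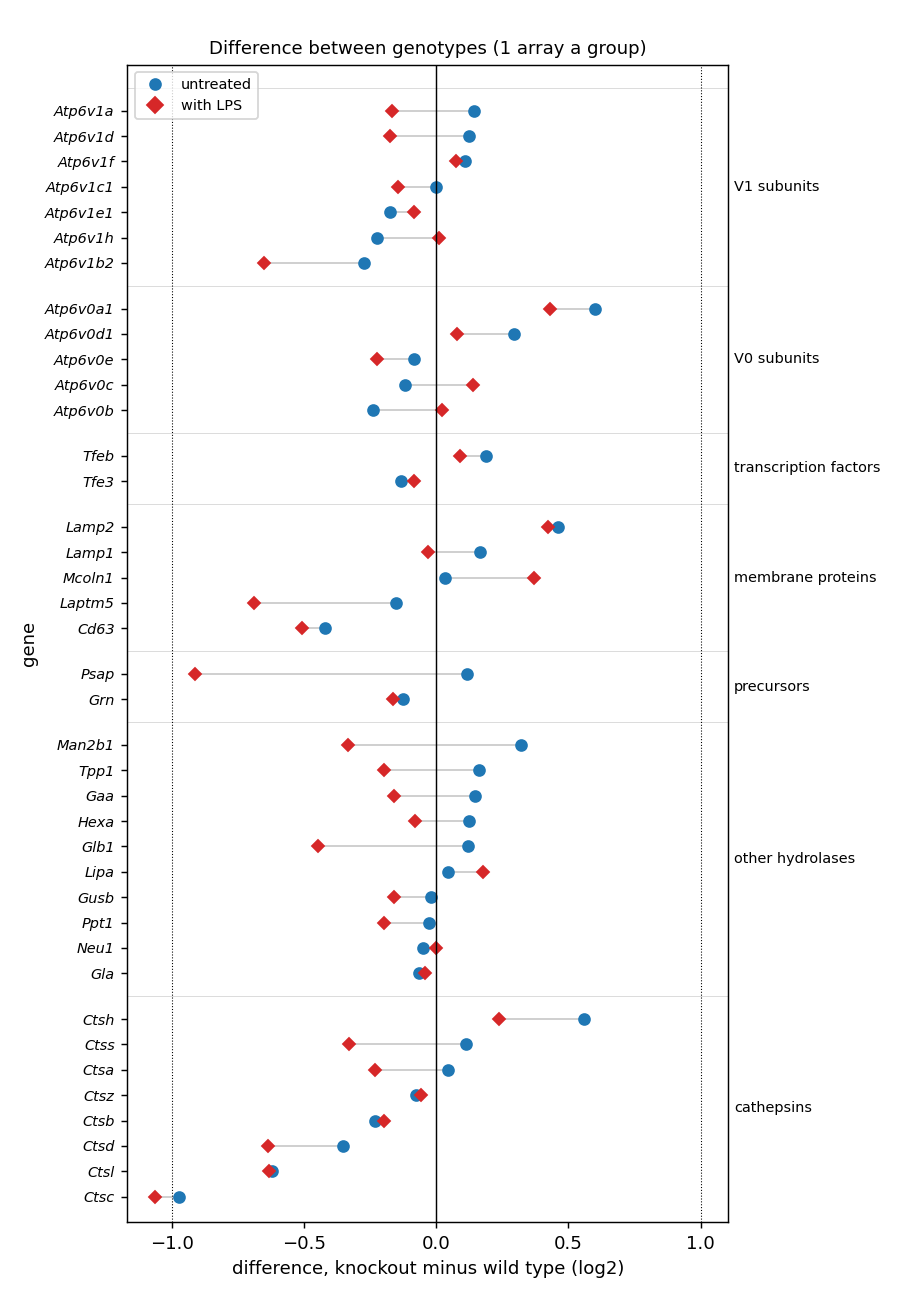
Log2 difference between knockout and wild type (x axis) for each member (y axis, grouped by class), circles for untreated cells and diamonds for cells with LPS, 1 array a group, with dotted lines at 2-fold. Ctsc lies lowest in both conditions (-0.97 and -1.06) and Psap moves from 0.12 without LPS to -0.91 with LPS.

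The LPS difference in knockout minus that in wild type was below 0 for 28 of 39 members, with a median of -0.14. Over all genes the median was -0.007. It reached 2-fold in 1 member, Psap (-1.03), against 2.99% of 15528 genes that were lower and 1.64% that were higher. It reached 1.5-fold in 1 more, Man2b1 (-0.65), against 8.46% lower and 5.51% higher. Glb1 (-0.56), Laptm5 (-0.54) and Ctss (-0.44) followed, and Mcoln1 (0.34) was highest. No test of these differences was possible with 1 array a group. Under the alternatives the Psap difference stayed below 0 and with normexp correction it was under 2-fold.

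Probes of a member did not always tell the same story. For the 15 members with several probes above background on all arrays, the probes differed by 1 or more on the log2 scale in 2 members, Tfeb and Ppt1, for LPS in both genotypes and for knockout against wild type with LPS. Probes of opposite sign were more frequent, with 5 of the 15 members for LPS in wild type and 6 in knockout. Among them were Ctsa and Gusb in both genotypes, each with a dim second probe. Between genotypes, signs were opposite in 7 members without LPS and in 5 with LPS. The probes of Tfeb are shown because they set the direction of this factor. The first 30 of 60 bases of each are printed, with positions of the whole probe in mm9.
Tfeb A_55_P2740042 (chr17:47896359-47896418, plus strand): atcagtcctctagtatgctgctgaccctct
Tfeb A_51_P370082 (chr17:47926621-47926680, plus strand): ggaacaaaggcaccatcctcaaggcctctg
Tfeb A_55_P1997898 (chr17:47929089-47929148, plus strand): tggaggacattttggagaaggaggtacaag

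The first of these, annotated to XM_006524004, gave 275, 338, 329 and 347 in the order wild type without and with LPS, then knockout without and with LPS. The second, of NM_011549, gave 70.9, 66.9, 59.8 and 61.3. The last, of NM_001161722, lies farthest along the plus strand and gave 265, 98.7, 179 and 45.8, which is -1.26 in wild type and -1.68 in knockout. Another probe of NM_001161722, dim and above background on 2 arrays only, gave -0.70 and -1.10. So LPS went with a higher Tfeb signal on one probe and a difference of 0.08 and 0.33 on another. Signals were lower on both probes of NM_001161722, and no direction is given for Tfeb.

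Ppt1 encodes palmitoyl-protein thioesterase, which strips fatty acids from proteins. Its 4 probes above background on all arrays are shown in the same way, because 1 of them has the largest single difference of any member probe.
Ppt1 A_55_P2506500 (chr4:122536156-122536215, plus strand): gagggttaagggcaggaagtgggaggatct
Ppt1 A_51_P114307 (chr4:122535157-122535216, plus strand): ttgttgcagatcagtaattgtgcctaaaag
Ppt1 A_55_P2082361 (chr4:122525717-122525776, plus strand): atctgcgacttcatcaggaagtcacttaat
Ppt1 A_51_P352232 (chr4:122527419-122527478, plus strand): agtgtagcctgaattcctagtaattaaaag

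In the same order of arrays the first gave 5272, 3986, 5438 and 3349, and the second 1673, 1944, 1732 and 173. The second probe is 1 spot and was low on the array of knockout with LPS alone. Probe A_55_P2082361 gave 1059, 1472, 965 and 1446, and A_51_P352232 59.8, 125, 41.2 and 136. LPS went with lower signals on the brightest probe (-0.24 and -0.41) and higher ones on A_55_P2082361 (0.64 and 0.88) and on A_51_P352232 (1.23 and 2.02), so Ppt1 too has no single direction.

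Grn and Lamp2 show differences of size. The brightest Grn probe gave 0.23 and 0.20 for LPS in wild type and knockout. A second gave 1.06 and 0.61, from signals of 78520, 145471, 92211 and 114885, and another 0.86 and 0.73. The 3 Lamp2 probes gave 0.63, 0.92 and 0.92 in wild type and 0.59, 1.04 and 0.47 in knockout, higher in each case.

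**Figure D5:**
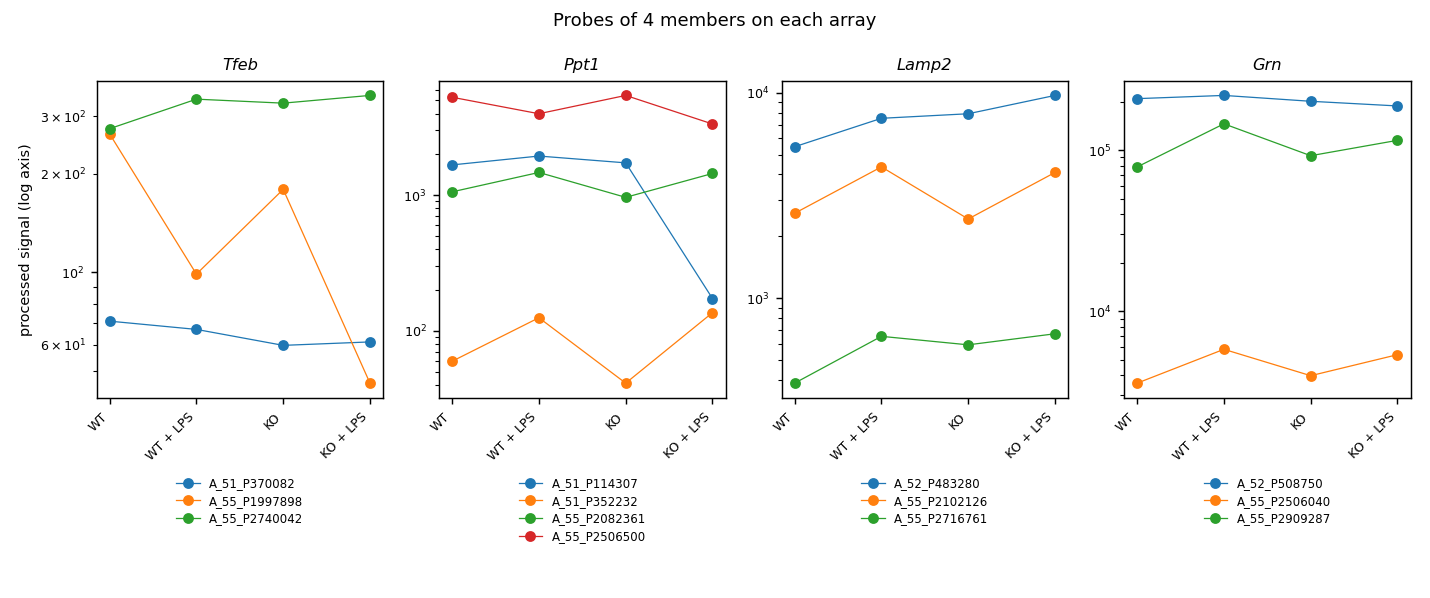
Processed signal on a log axis (y axis) of each probe of Tfeb, Ppt1, Lamp2 and Grn on the 4 arrays (x axis; WT wild type, KO knockout), with 1 line a probe to join its 4 readings and no error bars. The Tfeb probe A_55_P1997898 is lowest in knockout with LPS (45.8) while A_55_P2740042 is highest there (347), and the Ppt1 probe A_51_P114307 is low on that array alone (173).

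Other genes of the lysosome were read from lists of related genes. Of 12 other cathepsins, legumain and cystatins, 8 could be compared for LPS in wild type and 9 in knockout. At 2-fold 0 were higher and 1 lower in wild type, against 9.94% and 8.39% of all genes. In knockout 1 was higher and 5 lower, against 11.1% and 12.4%. Their median LPS differences were -0.40 and -1.27, against 0.58 and 0.38 for the 8 cathepsin members. Ctsk, the collagen-degrading cathepsin of osteoclasts, gave 7783 and 8329 in wild type and 29691 and 17030 in knockout, and was 1.86 higher in knockout without LPS and 1.08 with LPS. Both knockout arrays lay above both wild-type arrays, the reverse of Ctsc. Ctsf, a cysteine protease, gave 870 and 341, and 647 and 151. Cst7, a cystatin that acts on cathepsins, gave 529 and 336, and 1901 and 584. Stfa3, a stefin, was above background in knockout with LPS alone, where it was at least 3.92-fold higher than without LPS.

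Of 25 other hydrolases and cofactors, 2 were at least 2-fold higher and 1 lower with LPS in wild type, against 9.94% and 8.39% of all genes. In knockout 2 were higher and 5 lower, against 11.1% and 12.4%. Npc2, the carrier that hands cholesterol to the membrane, gave 8396 and 22897, and 10418 and 19545, and so was higher on both LPS arrays. Galc, the galactosylceramidase, was lower with LPS (-1.68 and -0.90) from dim signals of at most 85.1. Arsb, a sulfatase, gave 268 and 157, and 229 and 74.9. Gm2a, the activator of GM2 ganglioside degradation, gave 383 and 360, and 299 and 102, lowest in knockout with LPS as Psap was.

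Of 13 other pump subunits and assembly factors, 9 could be compared in wild type and 8 in knockout. With LPS 1 was at least 2-fold higher and 0 lower in wild type, against 9.94% and 8.39% of all genes. In knockout 1 was higher and 1 lower, against 11.1% and 12.4%. Their median LPS differences were 0.04 and -0.09, against 0.64 and 0.62 for the 12 pump members. Above 0 lay 6 of 9 in wild type and 4 of 8 in knockout. Tcirg1, a large V0 subunit related to Atp6v0a1, gave 21625 and 36137, and 9394 and 31818. It was lower in untreated knockout (-1.28), and its LPS difference was 0.91 in wild type and 2.05 in knockout. Atp6v0d2, the d subunit of osteoclasts, gave 1178 and 1339, and 944 and 509. Atp6v0e2 gave 4660 and 2645, and 5091 and 1627, lower with LPS in both genotypes, unlike the pump members above. Atp6v1c2 was above background in wild type with LPS alone, at least 2.22-fold above untreated wild type.

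Among 17 other membrane proteins and transporters, 15 could be compared. With LPS in wild type 3 were at least 2-fold higher and 1 lower, against 9.94% and 8.39% of all genes. In knockout 4 were higher and 1 lower, against 11.1% and 12.4%. Slc15a3, a peptide and histidine transporter, gave 683 and 16363, and 603 and 24323, the largest LPS difference in these lists (4.75 and 5.63). Mcoln2, a relative of Mcoln1, gave 878 and 7401, and 293 and 3431, while Mcoln1 itself differed by at most 0.22 in size. Slc11a1, the metal ion transporter of phagosomes, gave 2056 and 8998, and 1797 and 5675. Tpcn1, a cation channel of the endolysosome, gave 9436 and 2572, and 10539 and 1899.

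Of 6 genes that sort enzymes to the lysosome, Sort1, a sorting receptor, gave 223 and 41.7 in wild type and 1387 and 179 in knockout. It was lower with LPS (-2.26 and -2.66) and higher in knockout (2.56 and 2.16). Igf2r, the large mannose 6-phosphate receptor, gave 4738 and 5769, and 2220 and 1663, and was lower in knockout (-1.17 and -1.74). M6pr, the small receptor, gave 16557 and 26045, and 15158 and 26093, close between genotypes. Gnptab, which makes the mannose 6-phosphate tag, gave 2667 and 1016, and 3392 and 758. Of 16 genes of the MiT/TFE family and of lysosomal mTORC1 control, 15 could be compared. At 2-fold 1 was higher and 1 lower with LPS in each genotype. Over all genes the shares were 9.94% and 8.39% in wild type and 11.1% and 12.4% in knockout. Tfec, a relative of Tfeb, gave 193 and 376, and 301 and 597. Rragb, a Rag GTPase, gave 75.03 and 30.8, and 122 and 38.5.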

How the data were processed

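Each of the 4 one-colour arrays (Agilent design 074809) gave a scanner file. The authors' values are linear intensity per spot, with the processed signal background-subtracted and detrended within the array and not normalized between arrays, per the file headers; deposited flags of the type other (0 or 1) mark spots that are well above background, saturated or outliers. Feature Extraction is 10.7.1.1 per the file headers and 9.5.1.1 per the submitters' processing notes. The deposited series table, also intensity, has no stated scale or centring; between 56470 and 56543 of 56605 probes per array lay within 0.01 log2 of quantile-normalized processed signals, and it served as an alternative.

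The processed signals were put on the log2 scale and each array's 75th percentile, taken over non-control spots, was subtracted. Probe values are means of their spots without outliers. A gene took 1 probe: with values on all arrays, then above background on at least 1, then the highest mean signal. Of the 39 representative probes 38 have an accession that RefSeq (GRCm38.p6) gives the same symbol; Glb1 kept the file's name. A gene was higher or lower at 2-fold or more, among genes above background on 1 or both arrays. Where 1 array was dim, the fold is a bound ("at least"): the dim side was raised to the lowest level called well above background there, if below it. The additive fit used genes above background on at least 2 arrays (limma 3.58.1, R 4.3.3). Other steps used Python 3.11.15, numpy 2.4.6, pandas 2.3.3 and matplotlib 3.10.9. The call rule and the fit were tested on simulated data. Every simulated gene had the same noise, and each changed gene had the same LPS change in both genotypes. The simulation therefore does not cover unequal responses or the larger error of dim signals.

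Alternatives were normexp correction with an offset of 50, centring on 7 spike-in probes, quantile normalization, the deposited table, no filter, the mean of all probes and, for the fit, a trended prior and a filter on all 4 arrays. The members and gene lists were chosen with earlier results of these data known. One gene of the cell type markers is not reported here. All members may be named; of other lists, at most the 4 largest genes called in a comparison. Sequences shown are those of the members with the 3 largest and 3 lowest mean LPS differences, of members whose probes disagree, and, chosen after the motif search, of 3 promoters with several E-box cores.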

Additional observations from a re-analysis of the deposited data

Results flagged for a closer look

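For 5 members the difference had opposite signs on the 2 sides of the same contrast, each beyond 2 technical SDs from 0; none of these contrasts was tested, since each group had 1 array. Psap differed with LPS by 0.12 in wild type and -0.90 in knockout, a gap of -1.03. Mcoln1 differed with LPS by -0.12 in wild type and 0.22 in knockout, a gap of 0.34. Man2b1 differed between knockout and wild type by 0.32 without LPS and by -0.33 with LPS, a gap of -0.65. Tpp1 differed in the same contrast by 0.16 and -0.20, a gap of -0.36. Atp6v1d differed by 0.12 and -0.17, a gap of -0.30. Across the 7 settings the Psap LPS difference in wild type ran from -0.10 to 0.14 and that in knockout from -1.14 to -0.85, so the opposite signs of Psap depended on the scaling. The same held for Mcoln1, whose knockout difference ran from -0.02 to 0.22. The signs for Man2b1, Tpp1 and Atp6v1d were the same under all 7. Some of these settings could not change them: each gene has 1 probe and is above background on all 4 arrays. So the mean of all probes and the setting without a filter repeat the main one.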

How the results depend on the processing

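Members called for LPS in wild type numbered 5 in the main setting and 3 with quantile normalization and with the deposited table; for LPS in knockout between 5 and 7. Untreated genotype gave 0, and 1 with normexp, quantile normalization and the deposited table. Genotype with LPS gave 1, and 0 with the mean of all probes. The larger LPS difference in one genotype gave 1, and 0 with normexp. The additive LPS calls went from 8 to 17 with normexp, 15 with the filter on all 4 arrays and 23 with the trended prior, while the share of all genes called went from 21.8% to 34.5%, 33.8% and 37.2%; the 8 main calls were all among them, and quantile normalization, spike-in centring and the deposited table each lost Atp6v0d1. Medians of LPS differences, in the order cathepsins, other hydrolases, pump subunits, were in wild type 0.43, -0.31 and 0.43 with quantile normalization, 0.36, -0.36 and 0.42 with spike-in centring, and 0.43, -0.31 and 0.43 with the deposited table; the mean of all probes gave 0.50 for cathepsins and -0.044 for hydrolases. In knockout they were 0.15, -0.48 and 0.40 with quantile normalization, 0.14, -0.55 and 0.38 with spike-in centring, and 0.15, -0.48 and 0.40 with the deposited table; the mean of all probes gave -0.066 for hydrolases and 0.53 for the pump. For knockout against wild type with LPS, normexp gave the pump -0.14. The causes were not tested. These class medians for LPS kept their sign in all 7 settings. Of single-member differences under the alternatives, 641 moved by no more than the technical SD and 295 by more. The 641 include all 156 of the setting without a filter, which could not move because every member was above background on all arrays. Quantile normalization and the deposited table are near copies, each with 73 moved and 83 not, so they are not separate checks. No paired analysis was possible because each group has 1 array and the labels give no replicate numbers. Signals under 1000 limit Ctsh and Tfeb, whose technical SD is about 0.213 to 0.220.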
